A study of Mus musculus with 4 samples.

Results

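Predicted loci are genes that entered the mouse catalogue as a gene model (symbols of the form Gm followed by a number) or as a RIKEN cDNA clone (symbols that end in Rik), before anything was known of what they do. The 9 loci described here were chosen on measured values: each carries such a symbol, had at least 0.5 RPKM in non-growing oocytes (NGOs), and had at most 1/8 of that value in fully grown oocytes (FGOs). RPKM is reads per kilobase of exon, scaled to the size of the library, so levels can be set side by side between genes. The table lists 25587 genes, 6138 of them with a predicted symbol. Of these, 6075 lay outside 2 clusters of related predicted genes on chromosomes 2 and 4 that were left out, and 1083 of the 6075 reached 0.5 RPKM in NGOs. The 9 loci are thus 0.831% of the 1083, against 1.26% of named genes (125 of 9891) and 1.22% of all genes (134 of 11004) with the same start and the same difference. These shares are the ones the choice was made on and are given as a description.

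The study sequenced total RNA, depleted of ribosomal RNA, of wild-type oocytes from mice of the strain C57BL/6Babr aged 5 to 20 days. There was 1 library each of NGOs, of 2 stages of growing oocytes (GO1 and GO2) and of FGOs, each from a pool of many oocytes, and no animal received a treatment. With 1 library per stage there was no replicate, so no test, SD or p value is given. NGO and FGO libraries were made with dUTP second strands and the NEBNext set, and GO1 and GO2 libraries with ScriptSeq v2, so between these pairs stage and protocol cannot be told apart. GO1 against GO2 is therefore the only comparison within 1 protocol that played no part in choosing the loci. The RPKM values came from whole reads, and the read count behind each value was recovered from them. Intervals are 95% intervals for counting error only and take each read as independent. Reads copied by PCR are not independent molecules, so the intervals may be too narrow. A pool of oocytes with fewer RNA molecules of a kind per cell cannot be told from a pool with fewer cells that hold it.

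During growth the mouse oocyte enlarges inside its follicle while arrested in the first meiotic prophase, and builds a store of RNA and protein for the embryo. Transcription stops as the oocyte reaches full size. A non-growing oocyte has left the early steps of meiotic prophase only shortly before, and transcripts of that phase and of the earliest follicle stage are known to run down as growth proceeds. Long non-coding RNAs are transcripts without a recognised protein, and some start next to the promoter of a coding gene and run the other way.

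By their present annotation the name "predicted" holds only in part. GENCODE (release M21) and RefSeq both list 5 of the 9 loci as protein coding, which are Gm10567, 8030474K03Rik, 1810030O07Rik, Gm4969 and 4932438H23Rik. The other 4, Gm15879, 2410003L11Rik, 1700112D23Rik and Gm11269, are listed by GENCODE as antisense or processed transcripts, and all of these except Gm15879 are listed by RefSeq as lncRNA. In all, 8 of the 9 matched a RefSeq gene by symbol or synonym. Gm4969 is now Bhmg1, with the synonym Meiosin, the helix-loop-helix partner of STRA8 in switching on meiotic genes. Gm10567 is now Tcf24, a member of the basic helix-loop-helix family of transcription factors. The table's Gm10567 is a single exon that lies inside the last exon of Tcf24, 598 bp past the stop codon of its 2-exon transcript, so it reads only that end of the gene, and no other entry of the table is named Tcf24. The 9 loci lie on 7 chromosomes, 2 of them on X, and 6 are on the minus strand.

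The sequence ahead of the start is printed here for 2 of the loci. Of these, 1 starts next to a named gene that was also at least 8-fold lower in FGOs, and the other is the meiotic regulator Gm4969. A link between these sequences and the levels was not tested. Both are taken from RefSeq on GRCm38.p6, printed 5′ to 3′ on the strand of the locus. In the stretch of 154 bases between the start of 1700112D23Rik and that of Eif5a2 (chr3:28781123-28781276, minus strand), capitals mark, in order, 1 E2F motif (TCCCGC) and 2 E-boxes (CACGTG). In the 250 bases before the start of Gm4969 (chr7:19118345-19118594, minus strand), capitals mark 2 adjoining E2F motifs read on the other strand (GCGGGA), 1 E-box, another such E2F motif, and 1 STRA8 motif (CNCCTCAG).
1700112D23Rik: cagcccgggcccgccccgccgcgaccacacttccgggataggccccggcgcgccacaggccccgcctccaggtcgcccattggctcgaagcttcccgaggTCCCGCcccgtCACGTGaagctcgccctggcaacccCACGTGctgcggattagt
Gm4969: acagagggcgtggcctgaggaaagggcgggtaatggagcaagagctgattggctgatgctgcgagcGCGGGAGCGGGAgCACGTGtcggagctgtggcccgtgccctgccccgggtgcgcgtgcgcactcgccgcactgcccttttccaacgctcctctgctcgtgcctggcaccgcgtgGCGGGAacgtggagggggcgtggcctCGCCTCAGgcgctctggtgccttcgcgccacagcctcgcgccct

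The 9 loci summed to 15.7 RPKM in NGOs and 5.98 in GO1, then 3.35 in GO2 and 1.29 in FGOs, from 3890, 1754, 1807 and 364 reads. Their median level was 1.24 RPKM in NGOs and 0.0613 in FGOs, while the median over all genes was 0.153 and 0.173. The loci were thus moderately to weakly expressed where they were highest, between percentile 59.0 (4932438H23Rik) and percentile 73.8 (Gm10567) of all genes in NGOs. None was listed at 0 in FGOs, but 4 had fewer than 10 reads there, and these are the 4 non-coding loci.

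**Figure D1:**
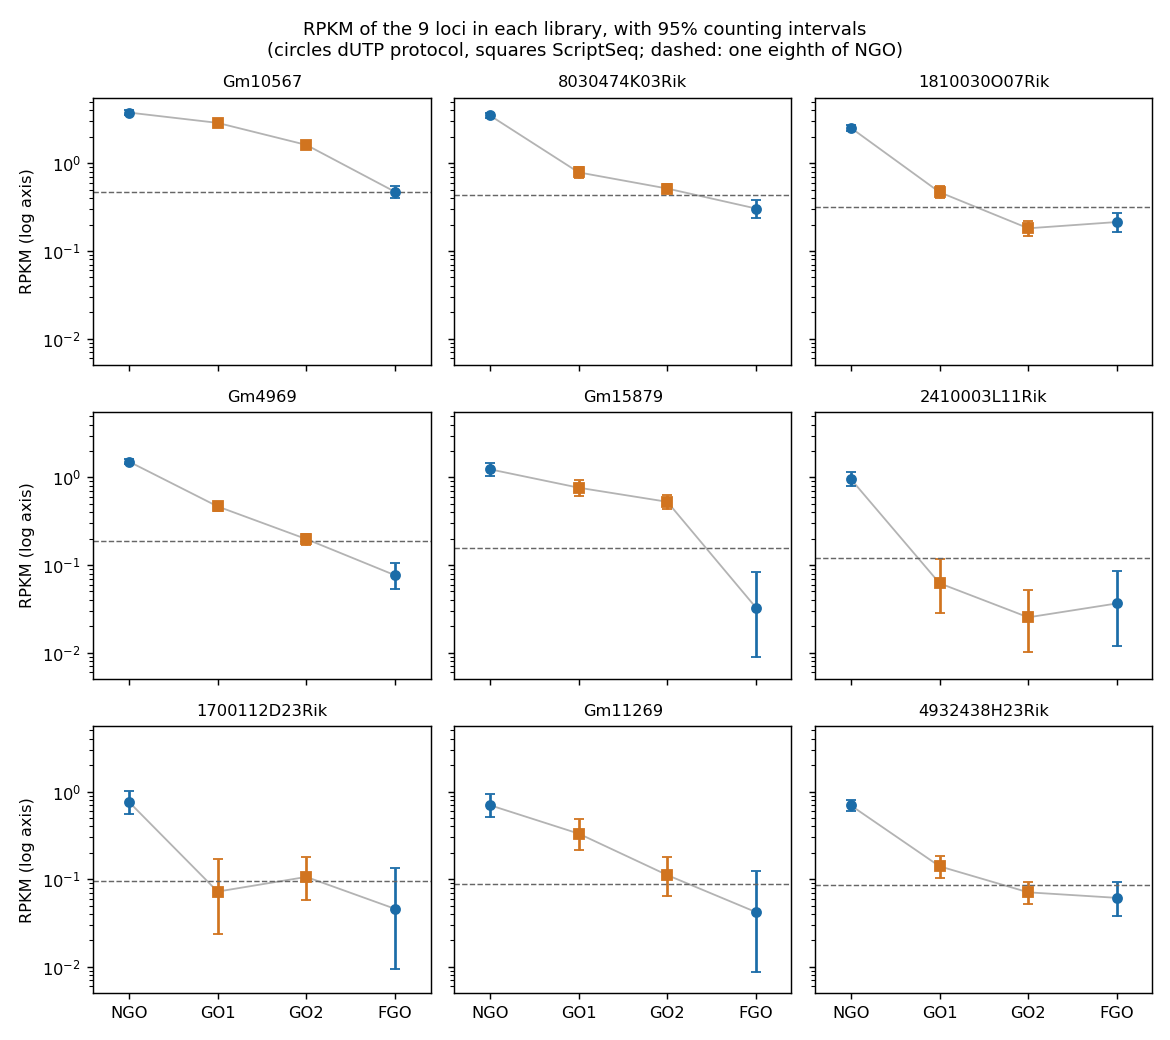
RPKM (log axis) of each of the 9 loci in the 4 libraries, with bars for the 95% counting interval; circles are dUTP libraries, squares are ScriptSeq libraries and the dashed line is 1/8 of the NGO value. Gm10567 and Gm15879 stay well above the line in GO1 and GO2, while 2410003L11Rik and 1700112D23Rik are already under it in GO1.

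Among the coding loci, Gm10567 (Tcf24; chr1:9960171-9962809, minus strand) was the most expressed, at 3.79 RPKM in NGOs and 2.89 in GO1, then 1.62 in GO2 and 0.472 in FGOs, from 1105, 966, 1031 and 149 reads. It kept most of its level into GO1 and was lower in each later library. Its NGO value was 8.02-fold its FGO value (6.76 to 9.58), which puts it at the very edge of the choice. 8030474K03Rik (chrX:101794656-101798642, plus strand), which encodes a protein of unknown role, had 3.51, 0.787, 0.515 and 0.305 RPKM in NGOs, GO1, GO2 and FGOs. Here the largest step was the first one, 4.46-fold (3.81 to 5.24) from NGOs to GO1.

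1810030O07Rik (chrX:12654879-12673668, minus strand), the other X-linked locus, had 2.54 RPKM in NGOs and 0.468 in GO1, then 0.181 in GO2 and 0.214 in FGOs. It had reached its low level by GO2, and the GO2 and FGO intervals (0.150 to 0.217 and 0.166 to 0.270) overlap. Gm4969 (Bhmg1, Meiosin; chr7:19101551-19118368, minus strand) had 1.51 RPKM in NGOs and 0.466 in GO1, then 0.198 in GO2 and 0.0765 in FGOs, from 677, 239, 193 and 37 reads. It was lower in every later library, and its NGO value was 19.8-fold (14.2 to 28.4) its FGO value, the largest ratio of the 5 coding loci. 4932438H23Rik (chr16:91053935-91095122, minus strand), another protein of unknown role, was the weakest coding locus in NGOs, with 0.694, 0.140, 0.0709 and 0.0613 RPKM.

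The non-coding loci had between 0.699 and 1.24 RPKM in NGOs, under 4 of the 5 coding loci and above the other, 4932438H23Rik. All lay between 0.0327 and 0.0459 RPKM in FGOs, under the lowest coding locus there, 4932438H23Rik. These FGO values rest on 3 to 5 reads each, and their counting intervals overlap that of 4932438H23Rik. Both NGO and FGO values were used in the choice, so this order is a description. Gm15879 (chr16:4032839-4037847, minus strand) had 1.24 RPKM in NGOs and 0.763 in GO1, then 0.526 in GO2 and 0.0327 in FGOs, from 140, 99, 130 and 4 reads. It kept a large part of its level through both growing stages and had the largest NGO to FGO ratio of the 9, 37.9-fold, with a wide interval (14.5 to 141) from its 4 FGO reads. Gm11269 (chr4:82692805-82693711, plus strand), antisense inside Nfib, a nuclear factor I gene, had 0.699, 0.331, 0.111 and 0.0421 RPKM, from 46, 25, 16 and 3 reads. The reads of Nfib itself, 0.106 RPKM in NGOs and 0.185 in GO1, then 0.146 in GO2 and 0.0917 in FGOs, did not follow that course.

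2410003L11Rik and 1700112D23Rik were already at most 1/8 of their NGO value in GO1, a library of the other protocol. Their NGO to GO1 ratios were 15.4-fold (7.86 to 34.5) and 10.5-fold (4.21 to 34.015), and both intervals reach below 8-fold. 2410003L11Rik (chr11:97598511-97622893, plus strand) had 0.956 RPKM in NGOs and 0.0620 in GO1, then 0.0253 in GO2 and 0.0365 in FGOs, from 121, 9, 7 and 5 reads. The 3 later libraries do not differ beyond their counting intervals. 1700112D23Rik (chr3:28702667-28781108, minus strand) had 0.762, 0.0722, 0.106 and 0.0459 RPKM, from 46, 5, 14 and 3 reads, and its 3 later values likewise overlap in their intervals.

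Placed by the first library with at most 1/8 of the NGO value, 2 loci (2410003L11Rik and 1700112D23Rik) reached it in GO1, 2 (1810030O07Rik and 4932438H23Rik) in GO2 and 5 only in FGOs. Over all genes with at least 0.5 RPKM in NGOs, 1.69% (186 of 11004) were at least 8-fold lower in GO1, and since NGO values chose the loci, nothing is read from the difference between 2 of 9 and this share. The value was lower at every step for 6 loci. The exceptions are 1810030O07Rik and 2410003L11Rik, which were slightly higher in FGOs than in GO2, and 1700112D23Rik, which was slightly higher in GO2 than in GO1, each within counting error.

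**Figure D2:**
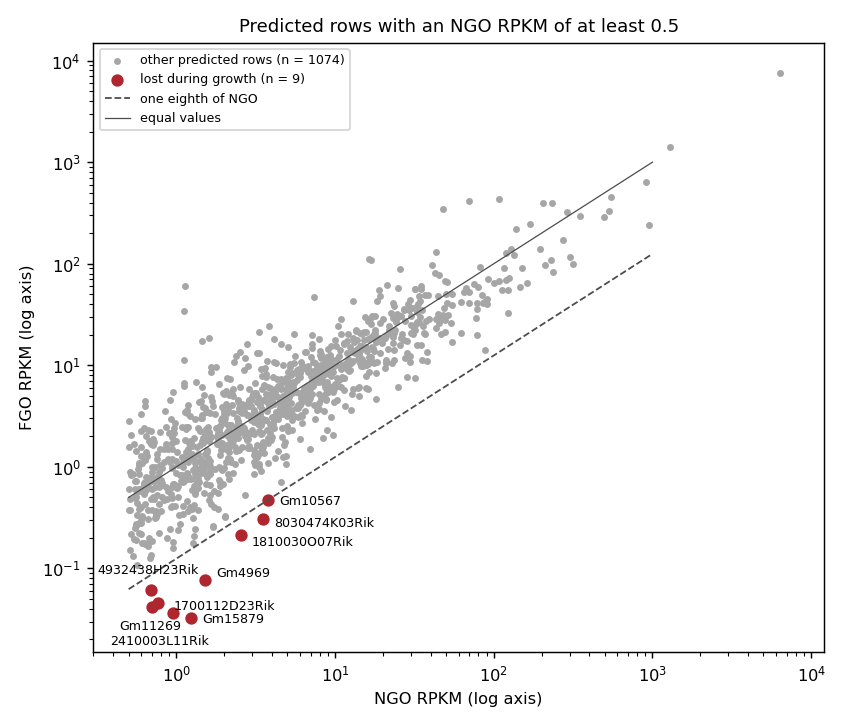
NGO against FGO RPKM (both log axes) of the 1083 predicted genes with at least 0.5 RPKM in NGOs; the solid line is equality, the dashed line is 1/8 of the NGO value and the 9 loci are in red. Gm10567 sits on the dashed line and the 8 others lie below it.

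Just inside the 8-fold limit were Gm10567 (8.02-fold), 4932438H23Rik (11.3-fold), 8030474K03Rik (11.5-fold), 1810030O07Rik (11.9-fold) and Gm11269 (16.6-fold). Just outside were 5133400J02Rik (7.15-fold), 1700037H04Rik (6.63-fold), 2610507I01Rik (6.46-fold), 4921507L20Rik (6.42-fold) and 0610010O12Rik (6.34-fold). By NGO level, 4932438H23Rik (0.694 RPKM), Gm11269 (0.699), 1700112D23Rik (0.762), 2410003L11Rik (0.956) and Gm15879 (1.24) were nearest inside. Loci with the same difference but too low in NGOs were Gm20529 (0.490 RPKM), 7530422B04Rik (0.441, listed at 0 in FGOs), 1700061G19Rik (0.408), Gm16194 (0.370) and Gm11640 (0.366).

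The GO1 to GO2 comparison asks whether the loci were still being lost between 2 growing stages that share a protocol. A gene was assessed where the higher of its GO1 and GO2 values was at least 0.5 RPKM, and it was counted as lower or higher past 2-fold on the log2(RPKM + 0.05) scale. Only 3 of the 9 loci reached that level, Gm10567, 8030474K03Rik and Gm15879, and 0 of the 3 passed 2-fold in either direction, where 0.951% (106 of 11144) of all assessed genes were 2-fold lower and 2.75% (306) were 2-fold higher. Their median log2 change was -0.57, against 0.03 over all assessed genes and 0.02 over the 994 assessed predicted genes that are not among the 9. Of the 39 assessed named genes chosen by the same difference between NGOs and FGOs, 21 (53.8%) were 2-fold lower, with a median of -1.02.

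With no minimum level, all 9 loci could be read. Then 3 were more than 2-fold lower in GO2, 1810030O07Rik, Gm4969 and Gm11269, and 0 were 2-fold higher, against 1.02% lower and 3.41% higher of all 20259 genes with a value. The median was -0.66 over the 9 loci, against 0.05 over all genes. For the named genes with the same NGO to FGO difference the share was 26.2% (32 of 122) and the median -0.67. Of the 9 loci, 8 were lower in GO2 than in GO1, and 1700112D23Rik was the exception.

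Read by read, Gm11269 had the largest GO1 over GO2 ratio, 2.97-fold (1.53 to 5.96), from 25 and 16 reads, GO2 being the more deeply sequenced library. 1810030O07Rik followed at 2.58-fold (2.02 to 3.30), and Gm4969 at 2.36-fold (1.94 to 2.86). These 3 loci were the ones past 2-fold on the log2(RPKM + 0.05) scale, where low values weigh less. 2410003L11Rik had 2.45-fold, but with 9 and 7 reads its interval ran from 0.811 to 7.73. 4932438H23Rik was 1.98-fold higher in GO1 (1.31 to 2.99), Gm10567 1.78-fold (1.63 to 1.95), 8030474K03Rik 1.53-fold (1.26 to 1.85) and Gm15879 1.45-fold (1.10 to 1.90). 1700112D23Rik, with 5 and 14 reads, had a ratio of 0.680 (0.192 to 1.998), so no difference was detectable at this depth.

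In all, 7 of the 9 loci had an interval wholly on the side of GO1. Over all 20177 genes with a recovered count, 25.3% were on that side and 30.9% wholly on the side of GO2, many of them with far more reads and smaller differences than these loci. The read counts do not speak to how the stages would vary between pools of oocytes.

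**Figure D3:**
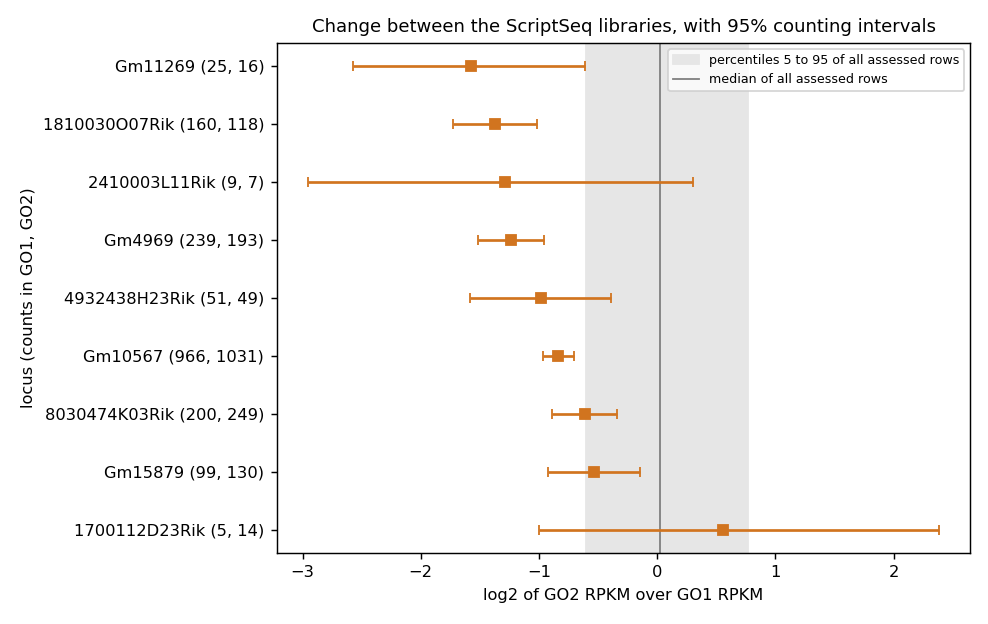
Log2 of GO2 over GO1 RPKM for each of the 9 loci, with bars for the 95% counting interval and the 2 read counts beside each name; the grey band runs from percentile 5 to percentile 95 of all assessed genes on the log2(RPKM + 0.05) scale and the line is their median. All loci but 1700112D23Rik lie left of 0, and the 2 bars that cross 0 belong to loci with fewer than 20 reads in each of these libraries. The points are ratios without the added 0.05, and most of the loci were below the level of assessed genes. The band is thus no like-for-like range for them.

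By position, 1 of the 9 loci lay within 10 kb of a named gene lost in the same way, against 1 of the 1074 other predicted genes (0.0931%). It is 1700112D23Rik, whose start by the deposited coordinates is 203 bp from that of Eif5a2 (chr3:28781311-28798846, plus strand) and which is transcribed away from it. The stretch of 154 bases printed above lies between the RefSeq starts, which differ from the deposited ones. Eif5a2 encodes a form of eIF5A, the hypusine-carrying factor that helps ribosomes elongate and terminate. It had 6.19 RPKM in NGOs and 1.62 in GO1, then 0.779 in GO2 and 0.440 in FGOs, from 3419, 1025, 939 and 263 reads. Its NGO value was 14.1-fold its FGO value (12.4 to 16.002), and that of 1700112D23Rik was 16.6-fold (5.33 to 83.4). From NGOs to GO1, across the 2 protocols, the steps were 10.5-fold (4.21 to 34.015) for 1700112D23Rik and 3.82-fold (3.57 to 4.10) for Eif5a2. The first of these rests on 5 reads in GO1 and on an NGO value used in the choice. The intervals nearly meet, so no difference between the 2 genes is read from this step. From GO1 to GO2, Eif5a2 was lower by 2.08-fold (1.90 to 2.27), while the interval of 1700112D23Rik ended at 1.998, so that both intervals overlap only at their ends. The neighbours' values come from the same libraries as the choice and are a description.

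**Figure D4:**
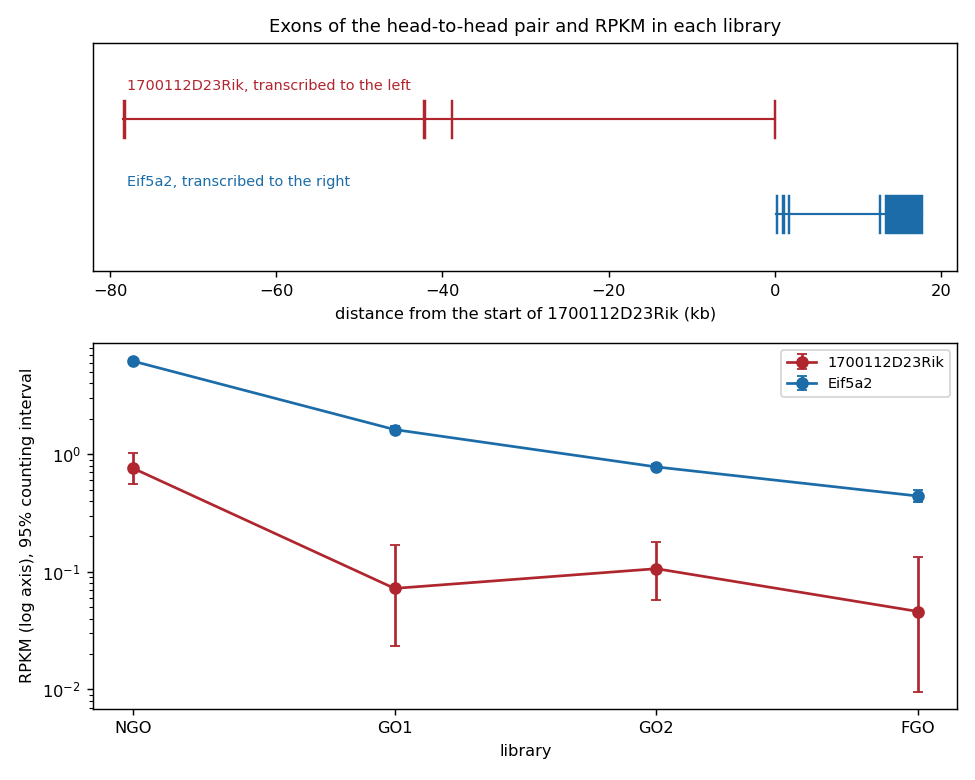
Top, exons of 1700112D23Rik and Eif5a2 by distance in kb from the start of 1700112D23Rik, which is transcribed to the left while Eif5a2 is transcribed to the right; bottom, RPKM of both (log axis) in the 4 libraries with 95% counting intervals. Eif5a2 is lower at each step and 1700112D23Rik drops between NGOs and GO1 to a level with 14 reads or fewer.

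After its values were seen, a head-to-head start within 2 kb was also counted, and 3 of the 9 loci (33.3%) had one, against 155 of the 1074 other predicted genes (14.4%). Gm4779, a predicted gene whose start is 1348 bp from that of 8030474K03Rik, had 11.5, 6.04, 5.84 and 3.96 RPKM in NGOs, GO1, GO2 and FGOs, lower at each step like its partner (from GO1 to GO2 within counting error), with a 2.91-fold ratio of NGOs to FGOs. Fbxo46, an F-box gene whose start is 1491 bp from that of Gm4969, had 12.6 RPKM in NGOs and 5.38 in GO1, then 8.66 in GO2 and 15.9 in FGOs. It was thus higher in both dUTP libraries than in both ScriptSeq libraries, where stage and protocol cannot be told apart. That Gm4969 was low in FGOs was set by the choice.

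Of the 9 loci, 4 overlapped another entry of the table on the opposite strand (44.4%, against 28.8% of the 1074) and 1 of these also on its own strand. Overlap was counted over whole entries, introns included. The strand setting behind the RPKM values is not given in the sources used here, so reads of such pairs could not be told apart where their exons overlap. Dnase1, opposite Gm15879, had at most 0.0175 RPKM, Slc2a2, opposite 1700112D23Rik, at most 0.00452, and 4931406G06Rik, opposite 4932438H23Rik, at most 0.0217. Nfib, opposite Gm11269, was above Gm11269 in GO2 and FGOs, with the values given earlier. Gm6505 lies inside 1700112D23Rik on the same strand, between its exons. It had 0.00799 RPKM in NGOs and 0.237 in GO1, then 0.264 in GO2 and 0.00739 in FGOs, and was thus high only in the ScriptSeq libraries.

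RefSeq promoter windows of 300 bases (250 before the start and 50 after it) were at hand for 5 of the 9 loci, 1700112D23Rik, Gm4969, 4932438H23Rik, 1810030O07Rik and 8030474K03Rik. That of 4932438H23Rik lies inside the table's entry, since RefSeq places its start there. Motifs were searched on both strands. The E-box CACGTG, the core site of many helix-loop-helix factors, was in the windows of 1700112D23Rik and Gm4969, and in 7.15% of all 32851 windows. The E2F motif TCCCGC was in the same 2 windows, and in 20.0% of all. The STRA8 motif CNCCTCAG was in that of Gm4969, and in 7.94% of all. The NRF1 motif GCATGCGC (2.71% of all windows) and the TATA box TATAAA (13.6%) were in none of the 5. These are matches of letters and say nothing of binding.

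In the stretch printed above for 1700112D23Rik, the E-boxes begin 43 and 18 bases upstream of its start, and the E2F motif begins 54 bases upstream. Seen from Eif5a2, whose RefSeq window overlaps that of 1700112D23Rik by 254 bases, the nearest bases of the E-boxes are 112 and 137 bases upstream. In Gm4969 the E-box begins 171 bases and the STRA8 motif 44 bases upstream, and the reverse E2F motifs begin 184, 178 and 70 bases upstream. Both windows were rich in G and C, at 75% with 38 CpG dinucleotides for 1700112D23Rik and 70.3% with 35 for Gm4969, against medians of 52.7% and 7 over all windows. The windows of 4932438H23Rik and 1810030O07Rik, at 50.3% GC with 7 and 11 CpGs, were close to those medians, and that of 8030474K03Rik, at 62.3% with 22, lay between.

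All 12 oocyte markers were above 0.5 RPKM in every library. Among them 1, Sohlh1, a helix-loop-helix factor of the earliest follicles, was at least 8-fold lower in FGOs, with 78.0 RPKM in NGOs and 2.35 in GO1, then 1.09 in GO2 and 0.577 in FGOs. Of 12 early meiotic prophase genes, 6 had at least 0.5 RPKM in NGOs and 0 of these were 8-fold lower in FGOs. The nearest were the synaptonemal complex genes Sycp3 (66.3 RPKM in NGOs, 9.48 in FGOs) and Sycp1 (18.3 and 2.79) and the axis gene Hormad1 (2.35 and 0.358), and Tex11 had 3.41 and 1.11. The list was split, since Sycp2 (8.23 and 13.4) and Msh4 (5.63 and 10.4) were higher in FGOs. Of those under 0.5 RPKM in NGOs, Dmc1 was higher in FGOs (0.367 and 1.16). Taf7l (0.193 and 0.00745) and Mei1 (0.180 and 0.0466) were lower. Rec8 and Spo11 had 7 and 3 reads in NGOs and 1 each in FGOs. Stra8, whose protein pairs with that of Gm4969, was listed at 0 in all 4 libraries, including the NGO library that held 677 reads of Gm4969.

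Some genes of other ovarian cells were also highest in NGOs, beside the 9 loci. The summed RPKM of 8 stroma markers was 5.70 in NGOs and 0.324 to 0.422 in the other libraries. It was led by the collagen genes Col1a1 (2.24), Col3a1 (1.73) and Col1a2 (0.896). Only these 3 reached 0.5 RPKM in NGOs, and all were over 8-fold lower in FGOs. The rest of the list was split. Dcn was lower in FGOs (0.382 in NGOs, 0.0602 in FGOs). Tcf21 and Lum had 0.0518 and 0.0654 RPKM in NGOs and were listed at 0 in FGOs. Pdgfra changed little (0.189 and 0.151), and Nr2f2 was higher in GO1 (0.245) than in NGOs (0.141). The summed RPKM of 8 blood markers was 3.36 in NGOs and 0.364 to 0.648 elsewhere. Hbb-b2 had 1.38 and Hba-a1 0.902 in NGOs, and Hba-a2 was listed at 0. The rest of this list was split too. Hbb-b1 (0.262 in NGOs) and Lyz2 (0.136) were listed at 0 in FGOs. Ptprc changed little (0.0192 in NGOs, 0.0162 in FGOs), and Csf1r was highest in GO2 (0.0492, against 0.0370 in NGOs). In GO1, Col1a1 had 0.0168 RPKM and Hbb-b2 was listed at 0, while Cd68, a macrophage marker, went from 0.626 to 0.546. Loci that were also at most 1/8 of NGO in GO1 were 2410003L11Rik and 1700112D23Rik. The other 7 loci had between 0.140 and 2.89 RPKM in GO1.

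Granulosa markers (10 genes) summed to 6.38 RPKM in NGOs and 18.8 in FGOs, endothelial markers (5 genes) to 3.37 and 12.4, and surface epithelium markers (4 genes) to 0.408 and 1.01. Each of these sums was carried by 1 or 2 genes, Nr5a2 (3.62 in NGOs, 8.65 in FGOs) and Cyp19a1 (0.518 and 6.08) for granulosa, Pecam1 (1.74 and 9.70) and Tek (1.56 and 2.62) for endothelium, and Upk3b (0.239 and 0.991) for surface epithelium. The rest of these lists was split. Of the granulosa genes, Inha (0.638 in NGOs, 1.54 in FGOs), Kitl (0.514 and 1.63) and Fshr (0.135 and 0.302) were higher in FGOs. Amh was also higher in FGOs, and Inhba changed little (0.0868 and 0.0844). The endothelial gene Kdr was higher in FGOs as well (0.0286 and 0.108). Some other genes of the same lists were, like the 9 loci, highest in NGOs. Foxl2, which defines granulosa cells, had 0.0753 RPKM in NGOs and at most 0.0265 in the other libraries, Gatm had 0.389 in NGOs and 0.00836 in FGOs, and Wt1 had 0.161 and 0.0202. Cdh5, which defines endothelium, had 0.0408 in NGOs and was listed at 0 in GO2 and FGOs, and Emcn was listed at 0 in every library. The epithelial keratin genes Krt19 and Krt18 went from 11 and 15 reads in NGOs to 0 and 1 in FGOs. The part of RNA from these other cells in the NGO values of the 9 loci was not tested.

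**Figure D5:**
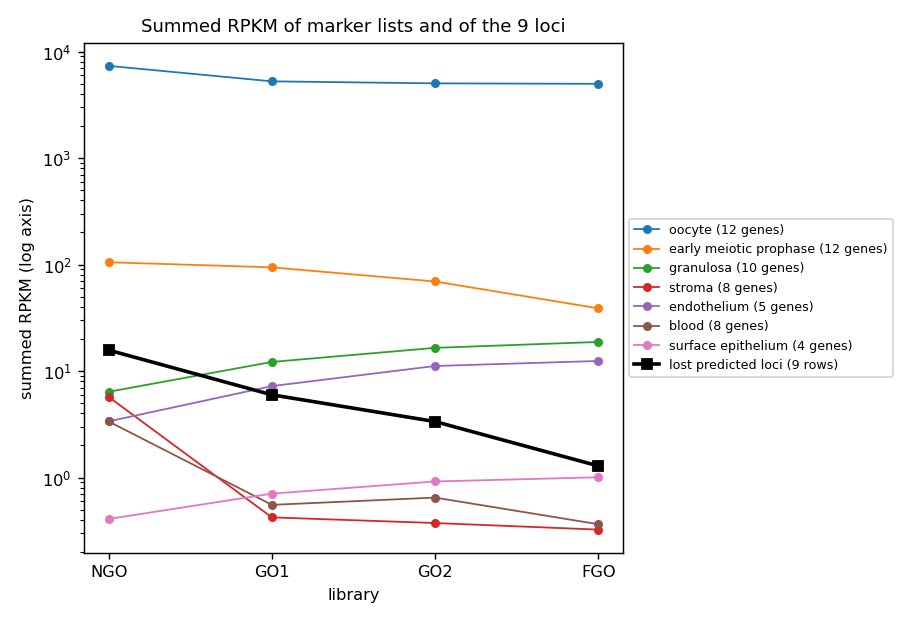
Summed RPKM (log axis) of 7 lists of marker genes and of the 9 loci (black squares) in the 4 libraries. The stroma and blood sums are highest in NGOs and below 1 RPKM from GO1 on, while the sum of the 9 loci is lower at each step, from 15.7 to 1.29.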

How the data were processed

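Expression values of 4 RNA-Seq libraries, 1 per oocyte stage, were used. The authors deposited RPKM on a linear scale, although the deposit is named for read counts, from reads trimmed with Trim Galore 0.2.8 and mapped to GRCm38 with TopHat2 2.0.9, per the labels. The program, annotation and strand setting behind the values are not given in the sources used here. From single-exon GENCODE M21 transcripts, the total of each library was fitted so that counts came out whole (99.3% to 99.7% of values above 0, within 0.02 of a whole number), and the exon length that made counts whole in all libraries gave the count of each gene. For 8 of the 9 loci it equalled a GENCODE length, and for Gm4969 it was the smallest that fitted (4041 bp). It was also the smallest that fitted for some neighbours and markers, among them Eif5a2, Rec8 and Krt18. Where the smallest length was taken, the true length and count may be larger. A floor of 3 counts over 1 kb was 0.0124 to 0.0271 RPKM. Intervals were Poisson for levels and exact binomial for ratios (Python 3.11.15, scipy 1.17.1). The steps were tested on simulated data. The loci, marker lists and motifs were chosen with earlier results of these data known. All loci were named, as were the 5 predicted genes on each side of a threshold, lost neighbours and marker genes. Other neighbours and Gm6505 were named after their values were seen. Other data of the study were not used here.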

Additional observations from a re-analysis of the deposited data

How the results depend on the processing

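No paired analysis was possible because each stage has 1 library and no replicate number, and for the same reason no library could be left out. The number of loci was 9, and it was 20 with an NGO minimum of 0.25 RPKM, 5 with a minimum of 1, 36 at 4-fold and 5 at 16-fold. It was 9 with the 2 clusters kept, 8 with FGO centred on NGO or with equal sums, and 7 with the pseudocount. With 1/4 in place of 1/8 of NGO, 5 loci were first under the limit in GO1 and 2 in FGO. With no minimum level, 3 loci were 2-fold lower from GO1 to GO2, where 0 were with it. Counting only overlapping neighbours, 0 loci had a lost named neighbour, and 0 overlapped an entry with at least 0.5 RPKM in NGOs. On the strand of the gene alone, 1 locus had an E2F motif. Of 47 alternatives, 37 left the value within the limits used, 10 moved it and 0 reversed a direction. Most of these values are counts, which have no direction to reverse, and only the median log2 change could have done so. A number of 8 or 7 loci in place of 9 was taken as within the limits. Centring shifts were -0.07 (NGO to FGO), -0.11 (NGO to GO1) and 0.02 (GO1 to GO2) in log2. The depth limits the non-coding loci, with 3 to 5 reads each in FGOs.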
